A study of Mus musculus with 11 samples.

Results

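The Tsc22 domain family comprises Tsc22d1, Tsc22d2, Tsc22d3 and Tsc22d4. These 4 genes, taken by gene name from the 29307 genes of the count table, were measured in liver sinusoidal endothelial cells (ECs) of germ-free (GF) mice and of conventionally raised (CONV-R) mice. They were selected on their counts in GF against CONV-R mice, with that difference already known, so that the values of this contrast are given as a description and carry no p-value. Transcripts of Tsc22d1 and Tsc22d3 were 2.72-fold and 3.02-fold higher in GF mice than in CONV-R mice, whereas those of Tsc22d2 and Tsc22d4 lay in the same range in both groups.

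The proteins of this family share a conserved TSC box followed by a leucine zipper, through which they form homodimers and heterodimers. Tsc22d1 was first described as a transcript stimulated by TGF-beta. Tsc22d3 encodes the glucocorticoid-induced leucine zipper (GILZ), a target of the glucocorticoid receptor that binds NF-kappaB and AP-1 and restrains inflammatory gene expression, in endothelium among other tissues. Long isoforms of Tsc22d1, Tsc22d2 and Tsc22d4 join NRBP1 and WNK kinases in the response of cells to osmotic stress, and Tsc22d4 is also known from work on hepatocyte lipid metabolism.

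The study compared the EC transcriptome in the absence and the presence of a gut microbiota. Both groups were male C57BL/6J mice aged 10 to 12 weeks that came from the same colonies and received the same diet. The 5 GF mice lived in sterile isolators, and the 6 CONV-R mice were kept under specific-pathogen-free conditions, so that housing and microbiota cannot be told apart. CD146-bound cells were sorted for CD31, CD105 and CD146, and each mouse gave 1 library of amplified cDNA. The paper reports fewer sorted cells and less RNA from GF than from CONV-R livers, and a low viability of the sorted cells. Cell and RNA yield therefore cannot be told apart from the group either.

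The 11 libraries held 7242717 to 16164588 counts, and 12905 genes had enough counts for a test. Summed markers of sinusoidal endothelium reached 34206 to 41171 CPM in CONV-R mice and 32715 to 46044 CPM in GF mice, where CPM stands for counts relative to the TMM-adjusted library total. With edgeR and Benjamini-Hochberg adjustment, 0 of these 12 markers passed the threshold, beside 7.48% of all tested genes called. DESeq2 and voom also called 0 of them. In edgeR 5 of the 12 had an unadjusted p under 0.05, and the share of all tested genes at that level was not counted. The median log2 fold change (GF minus CONV-R) of the 12 markers was 0.30, beside -0.01 over all tested genes. Single markers had 0.63 (Lyve1), 0.46 (Pecam1), 0.01 (Stab2) and -0.12 (Clec4g). The CONV-R library of replicate 3 stood apart from the other libraries of its group on the second principal component, at -48.1 against 6.01 to 17.6. In bulk libraries of this kind, fewer cells that express a transcript and less transcript per cell cannot be told apart.

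The coding sequence of the family domain is shown because it is what makes these genes a family and because near-identical sequence could move reads from one member to another. Each line gives 165 coding bases on the coding strand, across the junction of the last pair of exons of 1 coding transcript per gene in GENCODE M21 on GRCm38, and capitals mark bases that are identical in all 4 genes. The genomic spans, introns included, are chr14:76505263-76506546 on the plus strand, chr3:58459348-58460137 on the plus strand, chrX:140540978-140542139 on the minus strand and chr5:137758698-137759196 on the plus strand.
Tsc22d1: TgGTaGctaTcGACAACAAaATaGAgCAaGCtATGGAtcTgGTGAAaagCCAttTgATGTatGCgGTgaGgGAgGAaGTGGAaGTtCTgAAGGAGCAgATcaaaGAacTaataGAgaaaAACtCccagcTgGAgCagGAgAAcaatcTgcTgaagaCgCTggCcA
Tsc22d2: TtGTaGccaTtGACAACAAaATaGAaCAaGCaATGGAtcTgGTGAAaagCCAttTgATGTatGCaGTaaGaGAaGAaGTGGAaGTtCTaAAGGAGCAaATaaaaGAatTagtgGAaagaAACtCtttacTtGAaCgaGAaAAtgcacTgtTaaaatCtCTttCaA
Tsc22d3: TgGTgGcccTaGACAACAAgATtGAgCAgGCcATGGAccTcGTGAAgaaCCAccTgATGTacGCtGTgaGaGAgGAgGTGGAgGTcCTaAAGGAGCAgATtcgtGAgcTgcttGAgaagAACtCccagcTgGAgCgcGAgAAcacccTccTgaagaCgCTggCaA
Tsc22d4: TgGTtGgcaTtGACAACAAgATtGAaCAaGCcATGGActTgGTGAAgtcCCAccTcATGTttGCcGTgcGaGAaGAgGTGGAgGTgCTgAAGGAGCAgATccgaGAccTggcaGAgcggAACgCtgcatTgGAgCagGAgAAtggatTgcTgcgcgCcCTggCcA

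Of the 165 bases, 92 were identical in all 4 members (55.8%). Tsc22d1 and Tsc22d3 were the closest pair, with 78.2% identical bases, followed by Tsc22d1 and Tsc22d2 with 77.0%. Tsc22d2 and Tsc22d4 were the most distant pair, at 66.7%. The longest exact run shared by the annotated transcripts of any pair was 32 bases, between Tsc22d1 and Tsc22d2, and the other pairs shared at most 14 to 16 bases. No run of 50 bases, the length of the reads, occurred in transcripts of more than 1 member, so that a full-length read without mismatches belonged to 1 member.

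The 4 genes lie on separate chromosomes of GRCm38, and no other annotated gene overlaps any of them. Tsc22d1 (ENSMUSG00000022010) occupies chr14:76414961-76507765 on the plus strand, and its coding transcripts encode proteins of 82 to 1077 residues. Tsc22d3 (ENSMUSG00000031431) occupies chrX:140539528-140600659 on the minus strand and encodes 113 to 201 residues. Tsc22d2 (ENSMUSG00000027806), at chr3:58414715-58466783 on the plus strand, encodes 745 to 769 residues, and Tsc22d4 (ENSMUSG00000029723), at chr5:137745730-137768450 on the plus strand, encodes 96 to 509 residues. Counts per gene add up these isoforms, so that a short form of Tsc22d1 cannot be told from a long form here.

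Tsc22d1 reached 92.5, 99.9 and 142 CPM in CONV-R mice as the lowest, median and highest value. The 5 GF mice, replicates 1, 2, 4, 5 and 6, had 341, 207, 307, 296 and 305 CPM. Every GF mouse was above every CONV-R mouse, although GF replicate 2 was nearer to the CONV-R mice than the others and CONV-R replicate 3 was the highest of its group. The group means were 291 ± 49.9 CPM (SD, n = 5) and 107 ± 18.6 CPM (SD, n = 6), a log2 fold change (Log2FC) of 1.44 with a standard error of 0.14. GF replicate 2 also stood apart in the number of genes with counts, 22674 against 15456 to 18495 in the other libraries, and without it the Log2FC was 1.54. These values rest on 15113 counts in GF mice and 7697 counts in CONV-R mice.

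Tsc22d3, the GILZ gene, had 43.0, 48.8 and 57.1 CPM in CONV-R mice as the lowest, median and highest value. The same GF mice had 143, 114, 172, 134 and 186 CPM. The lowest GF mouse was again replicate 2, without which the Log2FC was 1.68, and the groups did not overlap. The means of 150 ± 29.0 CPM (SD, n = 5) and 49.6 ± 6.06 CPM (SD, n = 6) gave a Log2FC of 1.59 with a standard error of 0.14.

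Tsc22d2, a partner of the NRBP1 and WNK complex, had 67.5, 81.3 and 94.6 CPM in CONV-R mice as the lowest, median and highest value, and 92.3, 90.1, 80.6, 72.4 and 93.6 CPM in the GF mice. The GF values all fell within the CONV-R range. The means were 85.8 ± 9.05 CPM (SD, n = 5) and 80.01 ± 10.1 CPM (SD, n = 6), with a Log2FC of 0.10 and a standard error of 0.12.

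Tsc22d4 had 51.8, 57.0 and 67.3 CPM in CONV-R mice as the lowest, median and highest value, and 61.6, 52.2, 60.2, 60.8 and 58.7 CPM in the GF mice. The GF values again lay inside the CONV-R range. The means were 58.7 ± 3.80 CPM (SD, n = 5) and 58.2 ± 6.01 CPM (SD, n = 6), with a Log2FC of 0.01 and a standard error of 0.11.

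**Figure D1:**
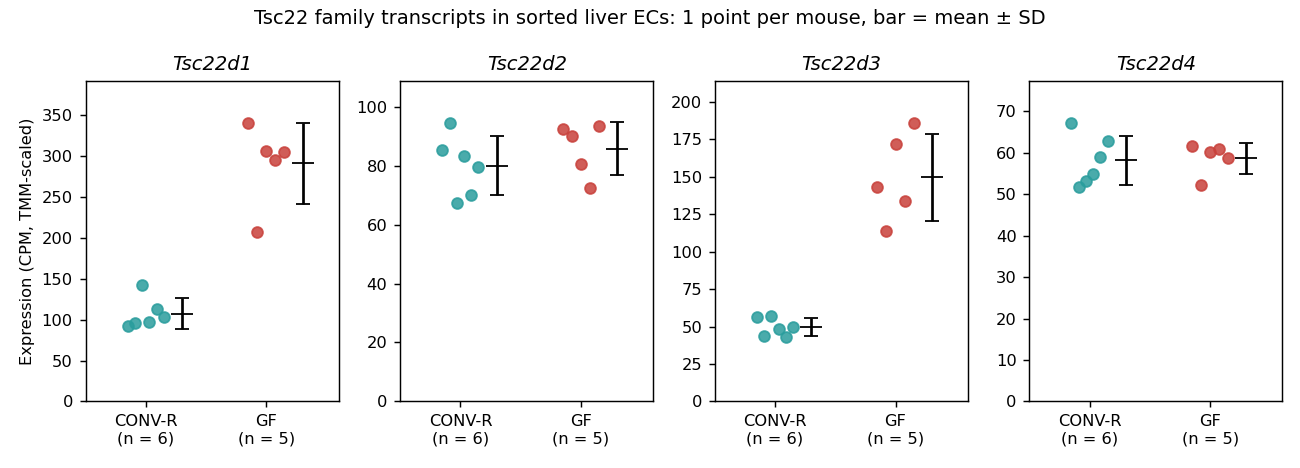
Expression of the 4 members by mouse in CPM, with 1 point per mouse, teal for CONV-R and red for GF, and the mean ± SD beside each group; each panel has its own linear axis from 0. GF mice lie between 207 and 341 CPM for Tsc22d1 and between 114 and 186 CPM for Tsc22d3, above all CONV-R mice, while the groups overlap for Tsc22d2 and Tsc22d4.

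All 4 members passed the filter on low counts, with 433 to 5249 counts per library. Tsc22d1 and Tsc22d3 passed the threshold of edgeR and no member was lower, which makes 2 of 4 members, beside 7.48% of all tested genes in either direction, 4.8% in the higher and 2.67% in the lower direction. The groups did not overlap for the same 2 members, beside 5.59% of tested genes in either direction, 3.22% with GF above and 2.37% with GF below. Since this contrast chose the family, these shares are given for scale.

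Tsc22d1 and Tsc22d3 also varied from mouse to mouse within the groups. The coefficient of variation of Tsc22d1 was 17.3% in CONV-R and 17.1% in GF mice, and that of Tsc22d3 was 12.2% and 19.4%. For the members whose groups overlapped it was 12.6% and 10.5% (Tsc22d2) and 10.3% and 6.48% (Tsc22d4), below both others in GF mice and beside Tsc22d3 in CONV-R mice. Over the 6528 tested genes with a mean of at least 20 CPM, the median was 14.5% in CONV-R and 16.5% in GF mice.

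Macrophage transcripts were higher on average in GF mice, with overlap between the groups. Of 10 Kupffer cell markers, 6 (Clec4f, Vsig4, Adgre1, Csf1r, Timd4 and C1qb) were higher in GF mice by edgeR with Benjamini-Hochberg adjustment, beside 4.8% of all tested genes. The other 4 did not pass, and DESeq2 called 6 and voom 5 of the 10. The groups overlapped for each of the 10 markers, and none was at 0 in all libraries. Their summed level ran from 85.1 to 224 CPM in CONV-R and from 193 to 912 CPM in GF mice, with GF replicate 6 the highest. GF replicate 4, with a Kupffer sum of 193 CPM, lay below CONV-R replicate 1 at 224 CPM and CONV-R replicate 6 at 196 CPM, and had 307 CPM of Tsc22d1 and 172 CPM of Tsc22d3. The part of macrophage transcripts in the levels of these members was not tested. Without GF replicate 6 the Log2FC was 1.42 for Tsc22d1 and 1.50 for Tsc22d3, and without CONV-R replicate 3 it was 1.54 and 1.63. Summed hepatocyte markers (33.9 to 74.7 CPM in CONV-R, 43.1 to 102 CPM in GF), lymphocyte markers (6.91 to 14.9 and 4.10 to 8.41 CPM) and stellate cell markers (106 to 272 and 208 to 275 CPM) overlapped between the groups. Hgf made up 171 of 189 CPM of the mean stellate sum in CONV-R and 235 of 252 CPM in GF mice, so that this sum says little about the other markers. The 4 tested stellate cell markers had Log2FC of 0.46 (Hgf, SE 0.19), 0.45 (Dcn, SE 0.58), -0.21 (Rgs5, SE 0.35) and -1.43 (Lrat, SE 0.49). Of these lists, 10 hepatocyte, 4 lymphocyte and 4 stellate cell markers had enough counts for a test and 0 passed with edgeR, beside 7.48% of all tested genes. An unadjusted p under 0.05 in edgeR was found for 1 hepatocyte, 1 lymphocyte and 2 stellate cell markers. The share of all tested genes at that level was not counted. DESeq2 and voom each called 1 stellate cell marker and none of the others.

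Levels of different genes were compared after division by the length of their merged exons, as CPM per kb. In CONV-R mice the order was Tsc22d1 at 11.9 ± 2.07, Tsc22d3 at 11.4 ± 1.40, Tsc22d4 at 7.75 ± 0.80 and Tsc22d2 at 7.12 ± 0.89 CPM per kb (SD, n = 6). Among the 12883 tested genes with a length, these levels stood at the percentiles 73.6, 72.7, 61.9 and 59.5, so that all members were above the median gene, at 5.12 CPM per kb. Tsc22d3 exceeded Tsc22d4 in 6 of 6 CONV-R mice, with a mean log2 ratio of 0.56 (SD 0.19), but a two-sided exact sign-flip permutation test gave p = 0.0313, the smallest that 6 mice allow, and 0.0938 after Benjamini-Hochberg adjustment over the 3 neighbouring pairs. Tsc22d1 exceeded Tsc22d3 in 4 of 6 mice, by 0.06 (SD 0.25, exact permutation p = 0.594, adjusted 0.594). Tsc22d4 exceeded Tsc22d2 in 4 of 6 mice, by 0.13 (SD 0.23, exact permutation p = 0.313, adjusted 0.469). With 6 mice, 1 pair at the smallest p cannot pass the adjustment alone, so that the 0.0938 of Tsc22d3 and Tsc22d4 says nothing about whether they differ. When the length of the longest transcript was used instead, Tsc22d3 exceeded Tsc22d4 by 0.24 and Tsc22d4 exceeded Tsc22d2 by 0.84. Each had an adjusted exact permutation p of 0.0469, since both pairs then reached the smallest p. Tsc22d1 exceeded Tsc22d3 by 0.31 (adjusted exact permutation p = 0.0625). For Tsc22d3 that transcript is a retained-intron form of 2876 bases that encodes no protein, whereas its longest coding transcript has 1974 bases. The ratios of Tsc22d3 to its neighbours under this setting rest on the noncoding length, and the coding length was not tried.

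In GF mice Tsc22d3 stood at 34.5 ± 6.69, Tsc22d1 at 32.4 ± 5.55, Tsc22d4 at 7.82 ± 0.51 and Tsc22d2 at 7.63 ± 0.80 CPM per kb (SD, n = 5). Tsc22d3 exceeded Tsc22d4 in 5 of 5 GF mice, by a mean log2 ratio of 2.12. The percentiles among all tested genes were 92.1 for Tsc22d3 and 91.5 for Tsc22d1, but 61.8 for Tsc22d4 and 61.2 for Tsc22d2. The 4 members summed to 38.2 ± 2.33 CPM per kb in CONV-R mice and 82.3 ± 11.4 CPM per kb in GF mice. Of that sum, Tsc22d1 and Tsc22d3 made up 31.2% and 29.8% in CONV-R and 39.3% and 41.7% in GF mice. The shares of Tsc22d2 and Tsc22d4 were 18.7% and 20.3% in CONV-R and 9.43% and 9.60% in GF mice, at CPM that overlapped between the groups.

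**Figure D2:**
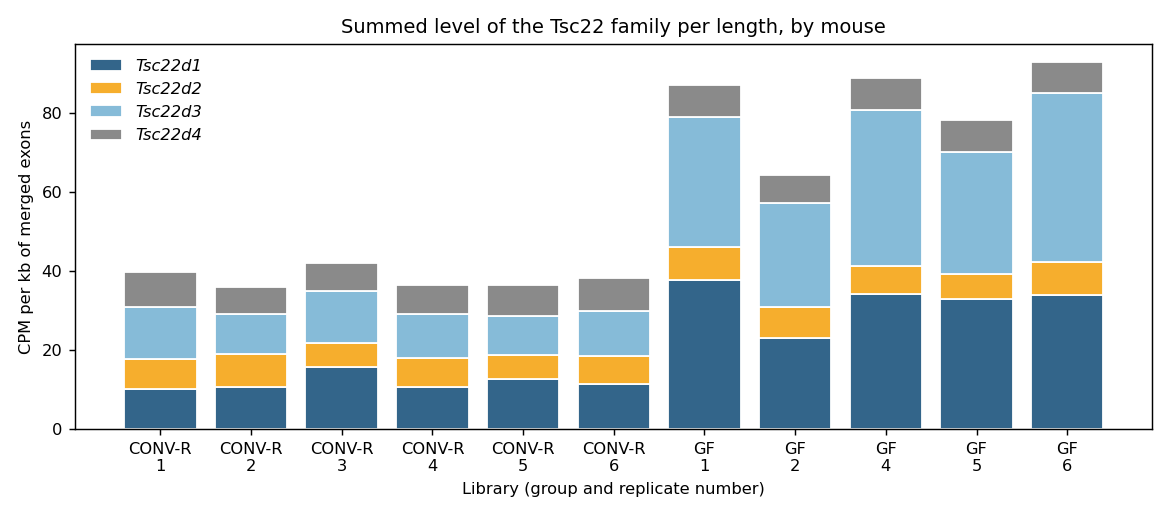
Stacked bars of the 4 members in CPM per kb of merged exons, with 1 bar per library on a linear axis from 0. The sums run from 36.0 to 42.1 in the 6 CONV-R libraries and from 64.3 to 92.9 in the 5 GF libraries, with the blue segments of Tsc22d1 and Tsc22d3 taller in GF and the segments of Tsc22d2 and Tsc22d4 similar in height.

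It was then asked whether members varied together among mice of the CONV-R group, which the choice of genes did not use. Tsc22d1 and Tsc22d2 ran in opposite directions over the 6 mice, with Pearson's r = -0.86 (exact permutation p = 0.0111) and Spearman's rho = -0.94 (exact permutation p = 0.0167). After Benjamini-Hochberg adjustment over the 6 pairs of members the exact permutation p of r was 0.0667, and without the 2 mice farthest from the median of Tsc22d1 r was -0.51. Tsc22d1 and Tsc22d3, the pair that was higher in GF mice, had r = 0.30 within CONV-R (exact permutation p = 0.615, adjusted 0.738) and rho = 0.09 (exact permutation p = 0.919). The r of this pair was -0.36 without the 2 farthest mice and moved between -0.63 (without CONV-R replicate 3) and 0.69 (without CONV-R replicate 1) when 1 mouse was left out, so that 6 mice do not settle its direction. That of Tsc22d1 and Tsc22d2 stayed between -0.94 and -0.86. The other 4 pairs had r between -0.37 and 0.33, with exact permutation p between 0.485 and 0.989 and adjusted values between 0.738 and 0.989. These values were not stable, since r moved between -0.72 and 0.19 (Tsc22d2 and Tsc22d3), -0.37 and 0.58 (Tsc22d2 and Tsc22d4) and -0.11 and 0.76 (Tsc22d3 and Tsc22d4) when 1 mouse was left out, and that of Tsc22d1 and Tsc22d4 between -0.66 and -0.02. Without the 2 mice farthest from the median of the first gene, r was 0.88 for Tsc22d2 and Tsc22d3 and lay between -0.07 and 0.44 for the other 3 pairs. No correlation was computed within the GF group, which has fewer than 6 mice. As a description over all 11 libraries, deviations from the group means correlated at 0.52 for Tsc22d1 and Tsc22d3, at -0.51 for Tsc22d1 and Tsc22d2 and at 0.39 for Tsc22d3 and Tsc22d4. The remaining pairs lay between -0.11 and 0.14.

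**Figure D3:**
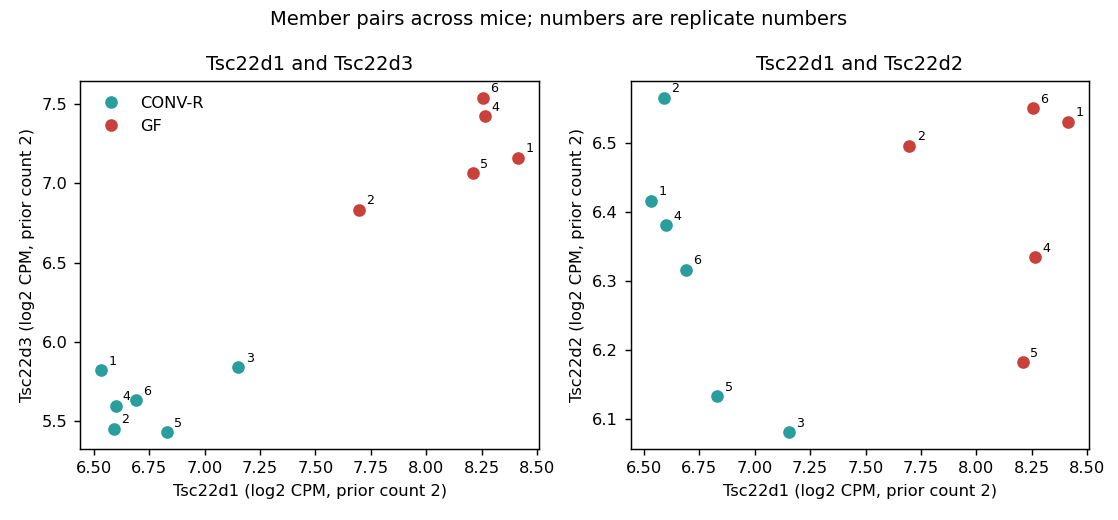
Log2 CPM (prior count 2) of Tsc22d3 and of Tsc22d2 against Tsc22d1, with 1 point per mouse labelled by its replicate number. Teal CONV-R and red GF points form separate clusters along Tsc22d1. Within CONV-R, r of Tsc22d1 and Tsc22d2 was -0.86 (adjusted exact permutation p = 0.0667), and -0.51 without the 2 farthest mice. For Tsc22d1 and Tsc22d3 r was 0.30, and 6 mice do not settle its direction.

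The genes with the pattern most like each member were found by Pearson's r of log2 CPM over the 11 libraries, which share depth and group and are given without a test. For Tsc22d1 these were AI607873 (0.963), Tsc22d3 (0.962) and Glul (0.960), the gene of glutamine synthetase. For Tsc22d3 they were Lipa (0.976), which encodes lysosomal acid lipase, S1pr1 (0.968), a receptor of sphingosine-1-phosphate, and Hpgd (0.964), which encodes a prostaglandin-degrading enzyme. Once the group means were removed, r fell to 0.77, 0.52 and 0.79 for the genes like Tsc22d1 and to 0.62, 0.38 and 0.76 for those like Tsc22d3, so that the r over all libraries includes the difference between the groups. The genes most like Tsc22d2 were Mob3a (0.960), Ndufv1 (0.926), a subunit of respiratory complex I, and Tecpr2 (0.918), with r of deviations from 0.92 to 0.96. Those most like Tsc22d4 were Mrpl38 (0.868), of the mitochondrial ribosome, Brk1 (0.847), of the actin-regulating WAVE complex, and B3gat3 (0.836), an enzyme of proteoglycan synthesis.

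Kinases and transporters that work with long TSC22 proteins were looked up next. Of 14 genes in the list of WNK and NRBP partners, 12 had enough counts, and 0 were called by edgeR, DESeq2 or voom at an adjusted p under 0.05, with 2 at an unadjusted p under 0.05 in edgeR. At 7.48% of all tested genes called, a count of 0 in a list of this size is near the background. Their median Log2FC was 0.06, beside -0.01 over all tested genes. Nrbp1, the pseudokinase partner, had 73.8 ± 12.7 CPM in GF and 59.5 ± 4.67 CPM in CONV-R mice (Log2FC 0.31, SE 0.12, edgeR adjusted p = 0.135). Wnk1 was abundant at 977 CPM in both groups (Log2FC 0.00, SE 0.11, edgeR adjusted p = 0.9999). The WNK-activated kinases Stk39 (SPAK) and Oxsr1 (OSR1) had Log2FC of 0.00 (SE 0.12) and -0.12 (SE 0.11). Of 8 reported binding partners, 7 were analysed here, without Jun, and 0 were called by edgeR, DESeq2 or voom. In edgeR 3 of them had an unadjusted p under 0.05. The share of all tested genes at that level was not counted, so that the 2 and the 3 of these lists have no background here. The count of 0 was again near the 7.48% over all tested genes, and it was 2 without CONV-R replicate 1 and 1 without GF replicate 5 or with the replicate block. The median Log2FC of these 7 genes was 0.22.

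Some of the listed glucocorticoid targets, the group to which Tsc22d3 belongs, were higher in GF mice, and others did not pass the threshold. Of 18 receptors, steroid-converting enzymes and targets, 17 were tested, 8 were higher in GF mice, none was lower and 9 did not pass, with a median Log2FC of 0.87, beside 4.8% higher, 2.67% lower and a median of -0.01 over all tested genes. Of the 8, Zbtb16, Ddit4 and Angptl4 had at most 3, 21 and 10 counts in any CONV-R library and passed the filter on low counts through the GF group. They were not tested when at least 10 counts were asked of every library, and nothing is drawn from their calls. Under that filter 6 genes of the list were called, the other 5 and Cebpd, beside 7.91% of all genes tested. Cebpd is named because of this call and had an edgeR adjusted p of 0.0571 under the filter used for the other values. The count of 8 and the median of 0.87 include Zbtb16, Ddit4 and Angptl4, so that neither is read against all tested genes. Of the targets that did not pass, Sgk1 had a Log2FC of 0.39 (SE 0.15) and Errfi1 0.30 (SE 0.21). Mt1 had 0.12 (SE 0.41), Mt2 0.11 (SE 0.53) and Nfkbia -0.003 (SE 0.37). Nr3c1, the glucocorticoid receptor itself, stood at 346 CPM in both groups (Log2FC 0.00, SE 0.10, edgeR adjusted p = 0.999). The steroid-converting Hsd11b1 had too few counts for a test. Tsc22d3 itself was left out of the list.

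Fkbp5, a co-chaperone of the receptor, rose from 39.8 ± 6.48 CPM in CONV-R to 121 ± 15.8 CPM in GF mice (Log2FC 1.61, SE 0.13, edgeR adjusted p = 1.52e-06). Klf9, a transcription factor, rose from 30.6 ± 5.09 to 94.1 ± 11.4 CPM (Log2FC 1.62, SE 0.14, edgeR adjusted p = 2.22e-06). The Log2FC of 1.59 of Tsc22d3 lay close to both. The clock gene Per1 rose more (Log2FC 3.33, SE 0.33). The mTORC1 inhibitor Ddit4 had 3 to 21 counts per library in CONV-R and 22 to 163 in GF mice, and the transcription factor Zbtb16 had 0 to 3 and 61 to 729 counts, so that no fold is given for them. The phosphatase gene Dusp1 (0.92, SE 0.12) and Pdk4 (0.87, SE 0.14), a kinase of pyruvate dehydrogenase, rose less. Angptl4, an inhibitor of lipoprotein lipase, had 1.88 ± 0.60 CPM in GF and 0.327 ± 0.368 CPM in CONV-R mice, from 7 to 37 and 0 to 10 counts per library, and its call was lost when any of 4 single mice was left out (edgeR adjusted p up to 0.0645).

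TGF-beta, the stimulus after which Tsc22d1 was named, was followed through 18 ligands, receptors, SMAD factors and targets, of which 17 were tested. Ctgf, a matricellular target, was the 1 gene called by edgeR, at 225 ± 124 CPM in GF and 28.5 ± 12.5 CPM in CONV-R mice (Log2FC 2.99, SE 0.35, edgeR adjusted p = 6.06e-05). The count of 1 of 17 is near the 7.48% over all tested genes, and it was 2 with DESeq2, with the replicate block and without GF replicate 2, and 3 without GF replicate 5. The median Log2FC of the list was 0.06. Of 12 FoxO factors and targets, 10 were tested and 3 were higher in GF mice, beside 4.8% of all tested genes, with a median Log2FC of 0.37, beside -0.01 over all tested genes. These were the flow-responsive factor Klf2 (Log2FC 0.96, SE 0.16, edgeR adjusted p = 0.00150), the repressor Bcl6 (0.74, SE 0.16, edgeR adjusted p = 0.00835) and Foxo3 itself (0.73, SE 0.18, edgeR adjusted p = 0.0199), whose call was lost without GF replicate 1 (0.57, edgeR adjusted p = 0.0614).

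**Figure D4:**
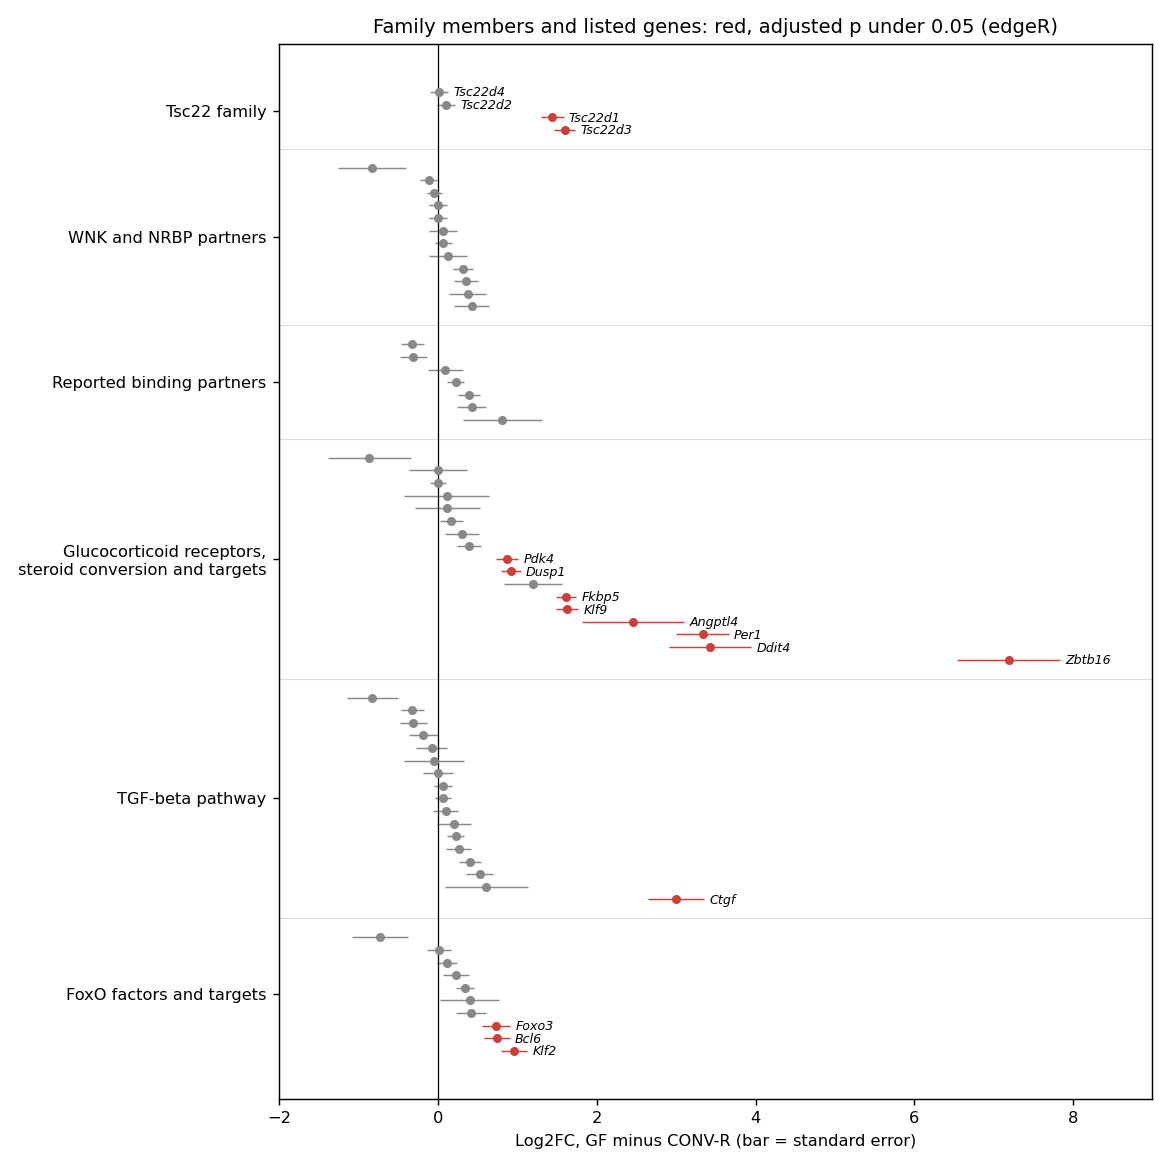
Log2FC (GF minus CONV-R) of the 4 members and of every tested gene of 5 lists, with 1 point per gene, standard error bars and red for an edgeR adjusted p under 0.05. Tsc22d1 (1.44) and Tsc22d3 (1.59) lie near Fkbp5 (1.61) and Klf9 (1.62), Tsc22d2 and Tsc22d4 lie near 0, and no gene of the WNK and NRBP list or of the binding partners is red.

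Start-site windows of 300 bases in RefSeq on GRCm38.p6 were available for Tsc22d1, with 5 windows, and for Tsc22d3, with 3 windows, the pair of members that was higher in GF mice. Both strands were searched for the glucocorticoid response element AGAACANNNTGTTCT, for the hexamer AGAACA that forms its first arm, for the E-box CACGTG, for the cAMP response element TGACGTCA and for the FoxO site GTAAACA. Of the 8 windows, 3 held a match, and they are printed 5′ to 3′ on the strand of the gene with the match in capitals, since they are the only windows of these genes in which one of these motifs was found.
Tsc22d1, chr14:76415571-76415870, plus strand: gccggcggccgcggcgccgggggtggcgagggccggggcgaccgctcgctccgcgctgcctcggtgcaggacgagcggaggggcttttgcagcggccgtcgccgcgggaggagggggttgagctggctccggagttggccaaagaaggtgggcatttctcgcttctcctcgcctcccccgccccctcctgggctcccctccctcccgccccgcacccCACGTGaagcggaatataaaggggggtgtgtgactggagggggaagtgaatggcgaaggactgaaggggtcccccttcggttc
Tsc22d1, chr14:76503976-76504275, plus strand: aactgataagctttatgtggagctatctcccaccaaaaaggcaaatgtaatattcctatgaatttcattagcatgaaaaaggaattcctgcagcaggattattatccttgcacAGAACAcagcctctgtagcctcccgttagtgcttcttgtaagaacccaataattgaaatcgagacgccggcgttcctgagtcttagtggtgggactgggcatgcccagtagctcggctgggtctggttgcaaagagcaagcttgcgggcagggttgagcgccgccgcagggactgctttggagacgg
Tsc22d3, chrX:140600473-140600772, minus strand: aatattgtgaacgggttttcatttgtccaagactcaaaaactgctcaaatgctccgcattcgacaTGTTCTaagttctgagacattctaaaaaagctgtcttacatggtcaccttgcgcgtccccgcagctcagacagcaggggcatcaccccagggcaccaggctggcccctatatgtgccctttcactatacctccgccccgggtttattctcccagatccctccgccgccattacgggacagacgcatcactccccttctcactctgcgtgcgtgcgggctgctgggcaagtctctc

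The first Tsc22d1 window held an E-box at position -33 from the start site, and 71.7% of its bases were G or C. The second held AGAACA at position -137. The Tsc22d3 window, the most upstream of the 3, held the hexamer as TGTTCT, its reverse strand form, at position -185. This window holds the first base of the GENCODE transcript that encodes 201 residues. The Tsc22d3 transcripts that encode 137 and 113 residues begin downstream of it. Among 32841 RefSeq windows, 19.0% held the hexamer, 7.15% the E-box, 3.65% the FoxO site, 1.79% the cAMP response element and 0.00913% the full glucocorticoid response element. No member window held the full element, the FoxO site or the cAMP response element, which says only that these letters were not in the windows searched.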

How the data were processed

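Libraries came from 6 CONV-R and 5 GF mice, 1 per mouse, with single-end reads of 50 bases, and groups follow the sample labels. Per gene, the authors deposited raw counts without normalization, obtained with featureCounts from trimmed reads that STAR had mapped to GRCm38. They left out 1 further GF library for its low number of mapped reads. The log2 values they also deposited are normalized across libraries with the DESeq method and served as an alternative. The annotation release and strand setting of the counting are not given in the sources used here.

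Counts were tested in R 4.3.3 with edgeR 4.0.16 (filterByExpr, TMM, quasi-likelihood test, Benjamini-Hochberg adjustment over 12905 genes, threshold 0.05). DESeq2 1.42.0 and voom of limma 3.58.1, other filters and scalings, a block for the replicate number and each mouse left out were alternatives. Lengths and positions came from GENCODE M21, to which 29081 of 29307 identifiers matched. Level and correlation tests were exact permutation tests in Python 3.11.15 over all sign changes or all pairings, with the mouse as the unit. Their Benjamini-Hochberg adjustment was done in SciPy 1.17.1. The members, the lists and the tests were chosen with earlier results of these data known. The rule for named genes took the 4 members, every called gene of the 5 partner and pathway lists, Nrbp1, Wnk1, Stk39, Oxsr1 and Nr3c1, and the 3 genes most like each member. Marker genes are named as examples of their group. Cebpd, Sgk1, Errfi1, Mt1, Mt2 and Nfkbia are named beside the called glucocorticoid targets of their list. Depth ran from 7242717 to 16164588 counts per library; intervals from counting were not needed at 433 or more counts per member and library.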

Additional observations from a re-analysis of the deposited data

Results flagged for a closer look

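The summed level of the 10 Kupffer cell markers in GF replicate 6 was 912 CPM, whereas the other GF mice lay between 193 and 354 CPM. The gap to the nearest mouse was 0.775 of the range of the group, above the critical value for 5 samples. Of 20 sets of values examined in this way it was the 1 that stood out, and chance alone marks about 1 in 20. The same mouse had the highest Tsc22d3 level, at 186 CPM, and 305 CPM of Tsc22d1, the median of its group. Whether its macrophage transcripts bear on the Tsc22d3 value was not tested; without this mouse the Log2FC of Tsc22d3 was 1.50.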

How the results depend on the processing

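The 2 members called were the same in number under every alternative run. Log2FC ran from 1.38 to 1.54 for Tsc22d1, 1.50 to 1.68 for Tsc22d3, 0.05 to 0.16 for Tsc22d2 and -0.02 to 0.06 for Tsc22d4 when single mice were left out, and from 1.23 to 1.52, 1.33 to 1.62, 0.05 to 0.10 and -0.01 to 0.03 over the 7 other settings. The deposited log2 values gave the lowest differences, 1.23 and 1.33. With the longest transcript as length, the log2 ratios of Tsc22d3 to Tsc22d4 and of Tsc22d4 to Tsc22d2 were 0.24 and 0.84. Each had an adjusted exact permutation p of 0.0469, where merged exons gave 0.56 and 0.13 and neither passed. The log2 ratio of Tsc22d1 to Tsc22d3 was 0.31 (adjusted exact permutation p = 0.0625). For Tsc22d3 the longest transcript is a noncoding retained-intron form, on whose length its ratios under this setting rest. Leaving out single CONV-R mice moved the ratios between -0.00433 and 0.13 (Tsc22d1 to Tsc22d3), 0.49 and 0.60, and 0.08 and 0.21; with 5 mice the smallest possible p is 0.0625.

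With a replicate block, Log2FC was 1.52 for Tsc22d1, 1.62 for Tsc22d3, 0.05 for Tsc22d2 and -0.01 for Tsc22d4, and 15 genes of the lists were called in place of 12. Same-numbered mice are different animals whose deviations correlated between -0.01 and 0.20, and the numbers were not taken to pair the mice. Over all genes, 965 of 12905 were called by edgeR, 1527 of 15540 by DESeq2, 453 of 27842 with the deposited values in limma, and 622 (without GF replicate 6) to 1260 (without GF replicate 5) with single mice left out. TGF-beta genes called were 2 with DESeq2, with the replicate block and without GF replicate 2, and 3 without GF replicate 5. Binding partners called were 1 with the block and without GF replicate 5, and 2 without CONV-R replicate 1.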
